A study of Mus musculus with 3 samples.

Results

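Mki67, the gene of the proliferation antigen Ki-67, held 38 of the 19301 m6A sites predicted in RAW264.7 cells. A site was counted when it lay inside the span of the gene on the same strand, which in GENCODE M21 on GRCm38 runs along chr7:135689784-135716361 on the minus strand (ENSMUSG00000031004.8). The gene was selected on the measured number of its sites, so its count, its rank and every share below are descriptions and carry no test. All 38 sites lay in exons of 1 transcript, Mki67-201, the one with the longest coding sequence (CDS), and 0 of them lay inside another gene on that strand. Most of them, 29 sites, were in exon 12, the long exon that codes for the tandem repeats of Ki-67, and 9 of these fell at 2 recurring positions of the repeat.

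N6-methyladenosine (m6A) is a methyl mark placed on A within mRNA, mostly by the METTL3 and METTL14 writer complex, at the motif DRACH, in which D is A, G or T, R is A or G, and H is A, C or T. The mark is known to be enriched in long internal exons and around stop codons and to be scarce close to exon junctions, where the exon junction complex covers the RNA. Ki-67 is a large nuclear protein of cycling cells that is widely used as a marker of proliferation. It organises the periphery of mitotic chromosomes, keeps them apart like a surfactant, recruits protein phosphatase 1 and is removed through the anaphase-promoting complex. Its middle part is a run of tandem repeats, all coded by a single exon.

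RAW264.7 is an established mouse macrophage line, although the series description calls the line human. Poly(A)+ RNA of 3 untreated biological replicates was profiled by miCLIP2, in which a rabbit antibody against m6A from Synaptic Systems is crosslinked to RNA by UV light, and the crosslinked nucleotide is read from the ends of the cDNAs. The authors deposited 1 list for the line, pooled over the replicates, with the position, strand and m6Aboost prediction score of each site. The list has 1 condition, so no groups could be compared. The score is the output of a classifier that reads the 21 nt around an A, the transcript region, the relative signal strength and the C-to-T transitions, and it is not a level of methylation. The list holds no read counts, so the depth behind each site is unknown, and the 95% Wilson intervals given for shares cover counting error only. Of 15 macrophage marker genes, 10 carried a site, among them Cd14, a co-receptor for lipopolysaccharide, with 13 sites. Of the other marker lists, 0 of 6 fibroblast genes and 0 of 7 T and B cell genes had a site, and of 6 embryonic stem cell genes only Klf4 had any. Of all annotated protein-coding genes 23.1% had a site. A gene without a site may still be expressed, since the list holds no expression level.

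On Mki67-201, which has 14 exons and 10061 nt, 36 of the 38 sites (94.7%, 82.7 to 98.5%) were coding, and the remaining 2 (5.26%) belonged to the 3′ UTR. The 5′ UTR, 222 nt long, held 0 sites, for which the Wilson upper limit is 9.18% of the sites. The 2 sites of the 3′ UTR, with scores of 0.517 and 0.733, were 41 and 115 nt after the end of the stop codon. The CDS makes up 94.8% of the transcript, about its share of the sites. The density was 3.78 sites per kb of CDS and 6.56 per kb of 3′ UTR, where 2 of 5 DRACH A were listed (40.0%, 11.8 to 76.9%), beside 36 of 336 in the CDS (10.7%, 7.84 to 14.5%), and these intervals overlap.

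**Figure D1:**
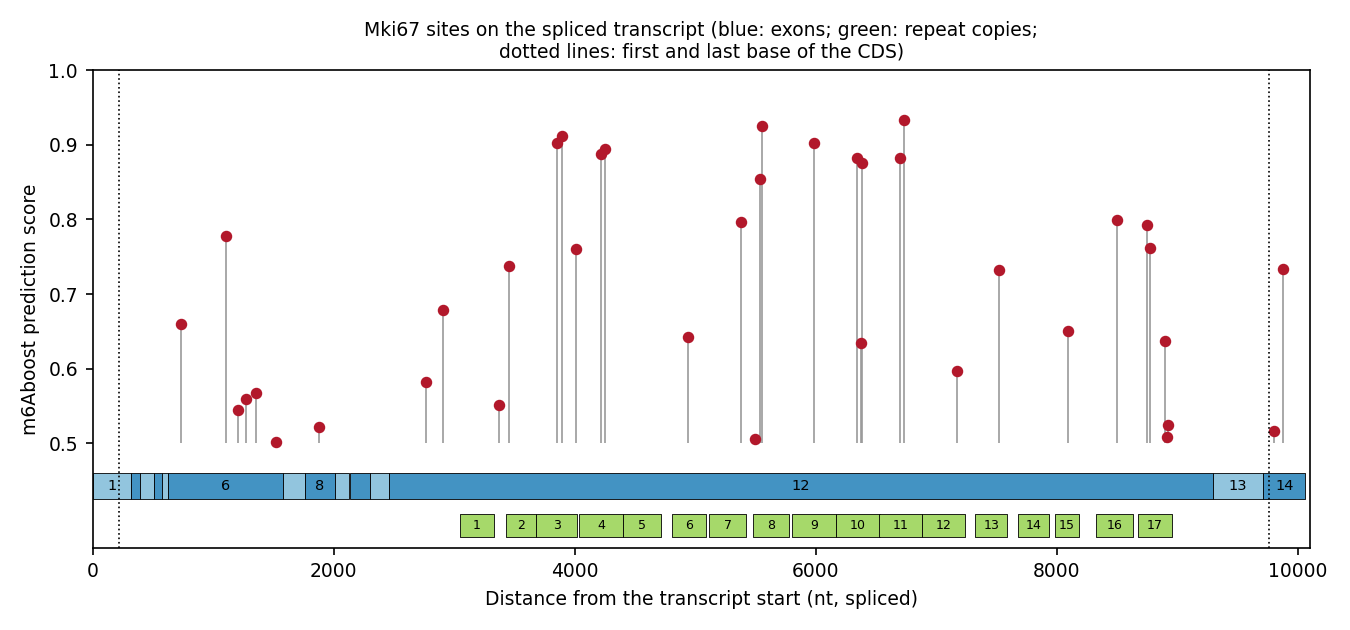
Position of the 38 Mki67 sites on the spliced transcript (x axis, nt from the transcript start) against the m6Aboost prediction score (y axis, no unit), with 1 point per site. Blue boxes are the exons, the longer ones numbered, and green boxes the 17 repeat copies. The 29 sites of exon 12 reach 0.933, whereas the sites in other exons lie between 0.502 and 0.778.

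The scores of the 38 sites ran from 0.502 to 0.933 with a median of 0.732, beside a median of 0.734 over the whole list. At a score of 0.7 or more stood 20 sites (52.6%, 37.3 to 67.5%), beside 58.1% of the list, and at 0.9 or more stood 5 (13.2%, 5.75 to 27.3%), beside 8.77%. Sites just above the threshold of 0.5 had scores of 0.502, 0.506, 0.508, 0.517, 0.522 and 0.524. An A of lower score is not in the list, so no values from just below the threshold can be given. All 38 sites were at DRACH (90.8 to 100%), beside 91.9% of the list.

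The 3 sites with the highest and the 3 with the lowest scores are printed here in the 5′ to 3′ direction of the RNA, with T for U. All sequences in this report are those of the reference GRCm38, here chromosome 7, minus strand. The sequence in RAW264.7 cells itself was not examined. Capitals mark the DRACH motif, with the predicted A in its centre. They show the sequences at both ends of the range of scores. The first 3, with scores of 0.933, 0.925 and 0.912, all lie in exon 12, and so do the last 2 of the other group, in which the scores are 0.502, 0.506 and 0.508.

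Site 27, chr7:135696783-135696803: tgactcagTGACTgttgagga
Site 21, chr7:135697965-135697985: agcaagtcGAACTgtcagcaa
Site 13, chr7:135699624-135699644: tgactcagTGACTgttgagga
Site 6, chr7:135707411-135707431: cgccgaacAGACTtgctctgg
Site 19, chr7:135698018-135698038: gacacagaGAACAaaggtgtg
Site 35, chr7:135694606-135694626: actcagtaAAACCtctgagaa

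Sites 27 and 13 have the same 21 nt. All of the highest 3 were at motifs ending in ACT, and of the lowest 3 only site 6 was.

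By motif, GAACT led with 8 sites, 8 of the 20 GAACT of the transcript (40.0%, 21.9 to 61.3%), with a median score of 0.886. AGACT had 6 sites of 24 (25.0%), TGACT 6 of 16 (37.5%) and GGACT, the leading motif of the whole list with 3739 sites there, 3 of 8 (37.5%, 13.7 to 69.4%). Over the chosen transcripts of all genes with a site the same shares were 11.6% for GAACT, 10.2% for AGACT, 6.40% for TGACT and 17.0% for GGACT. Of the GAACT sites 5, and of the TGACT sites 4, stood at the 2 recurring positions of the repeat described below. The A of such alike copies are not independent, which the intervals and medians of these 2 motifs do not take into account. Mki67 thus carried most of its sites at motifs ending in ACT other than GGACT, of which its transcript has only 8. GAACA followed with 4 sites of 20, AGACA with 3 of 43 and GGACA with 3 of 20, and 5 more DRACH motifs had 1 site each. Further, 0 of 21 AGACC (upper limit 15.5%) and 0 of 23 GAACC (upper limit 14.3%) were listed, motifs of which 1.33% and 1.45% were listed over all those transcripts. The predicted A was base 1 of its codon at 14 sites, base 2 at 10 and base 3 at 12, and the listed share of DRACH A was similar in size at each, with 10.0%, 10.3% and 12.1%.

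Of the 345 DRACH A of the Mki67 transcript, 38 were listed (11.0%, 8.13 to 14.8%). Over the chosen transcripts of the 5172 genes with a site this background was 4.61%. Nothing is read from the difference, since the gene was selected on its sites. Where the listed A stood within the gene is described by exon and by distance to the exon junctions.

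Exon 12, chr7:135694232-135701067, is 6836 nt long, makes up 67.9% of the transcript and holds 258 of its 345 DRACH A (74.8%). Its 29 sites were 76.3% (60.8 to 87.0%) of all Mki67 sites, a density of 4.24 sites per kb, and 11.2% (7.94 to 15.7%) of its DRACH A were listed. The share of sites in exon 12 was thus close to its share of length and of motifs. Exon 6, chr7:135707361-135708320, with 960 nt, carried 6 sites, or 6.25 per kb, and 6 of its 25 DRACH A were listed (24.0%, 11.5 to 43.4%). With a minimum score of 0.7, 1 of these 25 was left, beside 18 of the 258 in exon 12, so the order of the 2 shares turned round. The other 12 exons, each under 500 nt and 2265 nt in all, carried 3 sites, or 1.32 per kb, with 3 of 62 DRACH A listed (4.84%, 1.66 to 13.3%). Of these 12, exon 14, the last exon, had 2 sites at 7 DRACH A (28.6%, 8.22 to 64.1%), the highest share of any exon, exon 8 had 1 at 6 (16.7%), and the remaining 10 had 0 sites. The intervals of exon 12 and of the short exons overlap. Overlap is no test of a difference, and none was run, so nothing is concluded from the lower share in the short exons.

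**Figure D2:**
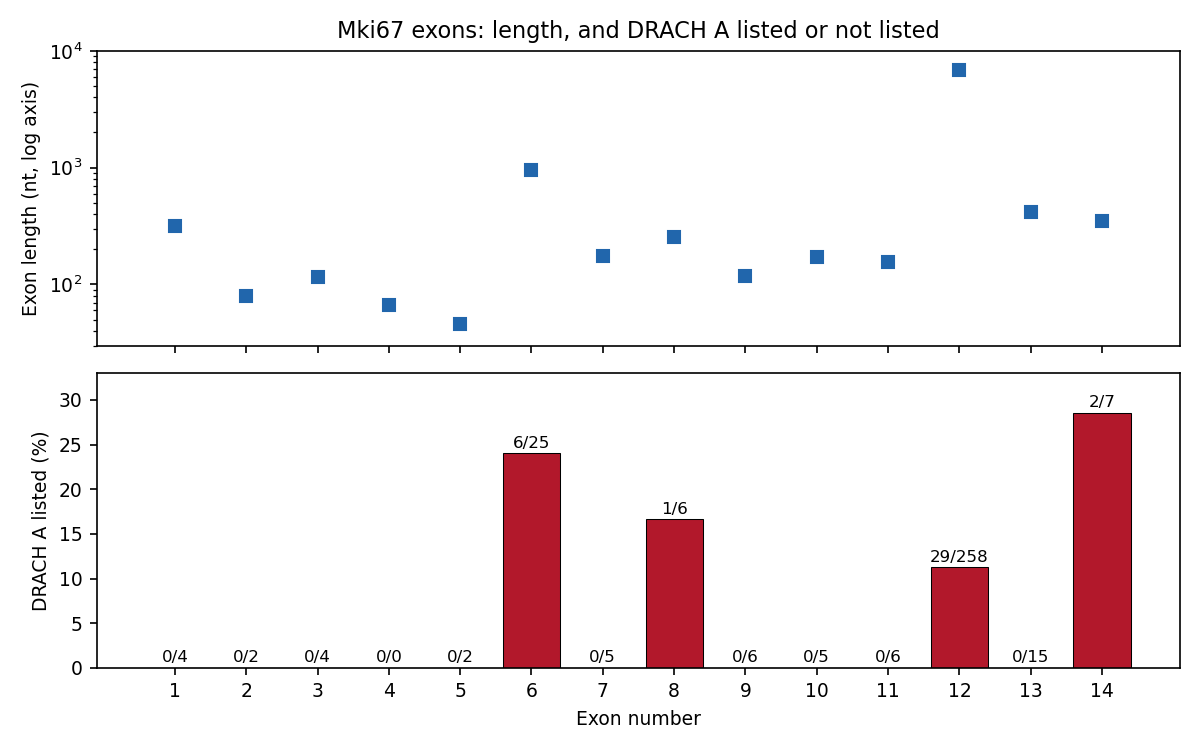
Length of each Mki67 exon (upper panel, nt, log axis) and percentage of its DRACH A that are listed as sites (lower panel, bars from 0). Numbers over the bars give listed DRACH A over all DRACH A of the exon, from 2 of 7 in exon 14, 6 of 25 in exon 6, 1 of 6 in exon 8 and 29 of 258 in exon 12 to 0 in the other 10 exons.

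Most scores in exon 6 were low. In exon 6 the sites at 109, 483, 583, 654, 737 and 900 nt from the 5′ end had scores of 0.660, 0.778, 0.545, 0.559, 0.568 and 0.502, so that 1 of 6 reached 0.7 and the median was 0.564. Exon 8 had its 1 site, of score 0.522, at nt 119. In exon 12 the median was 0.762, 18 of 29 sites reached 0.7, and the 5 Mki67 sites of 0.9 or more were all there. The ranges of exons 6 and 12 overlapped, from 0.502 to 0.778 and from 0.506 to 0.933.

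The listed share was also read by distance to the exon junctions. Within 100 nt of a junction, 2 of 58 DRACH A were listed (3.45%, 0.951 to 11.7%), and farther away 36 of 287 (12.5%, 9.20 to 16.9%), and these intervals overlap. The background shares over all genes with a site were 1.40% within 100 nt and 6.82% farther away, a difference in the same direction. The site closest to a junction was 61 nt from it, in exon 6, and the median distance was 1099.5 nt. Within 50 nt, 0 of 38 DRACH A were listed, which allows a share of up to 9.18%. In exon 12 the first site came 306 nt after the start, past 13 DRACH A that were not listed, and the last came 374 nt before the end, with 8 unlisted DRACH A after it.

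Between these ends the sites of exon 12 were spread over its whole length. In 4 equal parts of the exon, from 5′ to 3′, there were 7, 7, 8 and 7 sites, and 10.3%, 10.8%, 11.1% and 13.2% of the DRACH A were listed. The median scores of these parts were 0.738, 0.854, 0.880 and 0.651, highest in the middle of the exon. The 28 gaps between neighbouring sites ranged from 8 to 691 nt with a median of 137.5 nt, and the widest, from nt 1794 to nt 2485 of the exon, contained 24 unlisted DRACH A. Over the gene, 25 of 38 sites (65.8%, 49.9 to 78.8%) had another site within 100 nt.

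The 2 annotated transcripts differ in the part that holds the sites. Mki67-202, an incomplete model of 5 exons and 575 nt, is in GENCODE M21 the only one that passes the study's filter on transcript support, with level 3, while Mki67-201 has level 5. The study applied its filter to release M23, which was not examined here. Only 2 of the 38 sites lie in exons of Mki67-202, and 31 lie outside its span. Mki67-202 keeps 126 nt of exon 6, where 1 site lies, and lacks the 834 nt at chr7:135707487-135708320, where 5 sites lie and 5 of 21 DRACH A were listed (23.8%, 10.6 to 45.1%). The placing of the sites in exons therefore rests on a transcript that this filter leaves out when applied to M21.

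The repeats of Ki-67 were found on the translated CDS of Mki67-201. Residues were identical most often at a lag of 121 residues, or 363 nt, with 465 identities, and a profile from 1 unit of that length matched 17 copies from residue 942 to residue 2910, all in exon 12. Together the copies cover 5169 nt and hold 26 of the 38 sites (68.4%, 52.5 to 80.9%), or 5.03 per kb. Of the DRACH A inside copies, 26 of 203 were listed (12.8%, 8.89 to 18.1%), against 3 of 55 (5.45%, 1.87 to 14.9%) in the remaining 1667 nt of exon 12. These intervals overlap as well. The 3 sites of exon 12 outside copies lay at nt 306, 451 and 914, with scores of 0.582, 0.679 and 0.551.

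The number of sites per copy ran from 0 to 5, and counts this small do not show whether the copies differ. Counted from the 5′ end, copies 1, 5 and 14 had 0 sites at 12, 11 and 8 DRACH A, beside a listed share of 12.8% over all copies. Copy 17 had 5, copies 3, 8 and 10 had 3 each, copies 4 and 11 had 2 each, and the other copies had 1 each. Copies 3, 4 and 9 to 12, which form the most alike group with 78.1 to 100% of residues identical to the seed copy 9, held 12 sites at 87 DRACH A (13.8%, 8.07 to 22.6%). The 11 more divergent copies, with 31.1 to 63.4% identity, held 14 sites at 116 DRACH A (12.1%, 7.33 to 19.2%). The 2 intervals overlap almost wholly.

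Some positions of the repeat held a site in several copies. After alignment of the copies, 15 positions of the repeat had a site in at least 1 copy, and 6 positions had one in 2 or more copies, which accounts for 17 sites. DRACH A recur at equal positions whether listed or not. At nt 180, 5 of 10 copies with a DRACH A were listed, and at nt 217, 4 of 7. At nt 130, 264 and 274 these were 2 of 11, 1 of 10 and 1 of 11. The leading position was nt 180 of the repeat, where the A of the codon GAA was listed in copies 3, 4, 9, 10 and 11 with scores of 0.902, 0.888, 0.902, 0.883 and 0.883. Second was nt 217, 37 nt downstream, where the A of the codon ACT was listed in copies 3, 4, 10 and 11 with scores of 0.912, 0.895, 0.876 and 0.933. These 9 sites, in 5 copies, were among the 10 highest scores of the gene, with a median of 0.895, and the other 29 had a median of 0.643. The 1 other site as high was at nt 106 of copy 8, with 0.925.

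The stretch from 10 nt before nt 180 to 10 nt after nt 217 is printed for the 5 copies with a site there and for copies 12, 7 and 6, in which neither position was listed. Capitals mark the 5 bases centred on the 2 positions. All are from GRCm38 chromosome 7, minus strand, in the CDS of exon 12.

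Copy 3, chr7:135699624-135699681: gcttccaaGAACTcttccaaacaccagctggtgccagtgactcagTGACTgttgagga
Copy 4, chr7:135699264-135699321: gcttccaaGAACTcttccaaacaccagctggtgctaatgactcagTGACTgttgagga
Copy 9, chr7:135697497-135697554: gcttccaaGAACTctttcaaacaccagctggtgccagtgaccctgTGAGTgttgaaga
Copy 10, chr7:135697134-135697191: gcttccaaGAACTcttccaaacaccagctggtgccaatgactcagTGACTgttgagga
Copy 11, chr7:135696783-135696840: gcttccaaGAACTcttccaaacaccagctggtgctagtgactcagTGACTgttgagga
Copy 12, chr7:135696420-135696477: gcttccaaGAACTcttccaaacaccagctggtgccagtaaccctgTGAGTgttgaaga
Copy 7, chr7:135698217-135698274: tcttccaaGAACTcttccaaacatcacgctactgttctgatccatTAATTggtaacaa
Copy 6, chr7:135698565-135698622: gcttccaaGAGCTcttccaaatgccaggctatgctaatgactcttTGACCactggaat

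The listed copies 3, 4, 10 and 11 differ from copy 9 by 5, 7, 6 and 6 of 58 bases, and the unlisted copy 12 by 2. Of the 8 copies with GAACT at nt 180, 5 were listed, and copies 2, 7 and 12 were not. At nt 217 all 4 copies with TGACT were listed, and the other DRACH motifs found there, in copies 6, 8 and 13, were not. Copies 9 and 12 have TGAGT there, which is no DRACH, and neither was listed.

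Within each of the 2 positions the surrounding 21 nt, the stretch that the classifier reads, were the same in copies 3, 4, 10 and 11. Their scores at nt 180 nevertheless ran from 0.883 to 0.902, and at nt 217 from 0.876 to 0.933. Copy 12 has these same 21 nt at nt 180 and was not listed. It was the only unlisted DRACH A of the transcript whose 21 nt equal those of a listed site. The classifier reads these bases, so the 9 sites are not 9 separate pieces of evidence for the 2 positions.

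**Figure D3:**
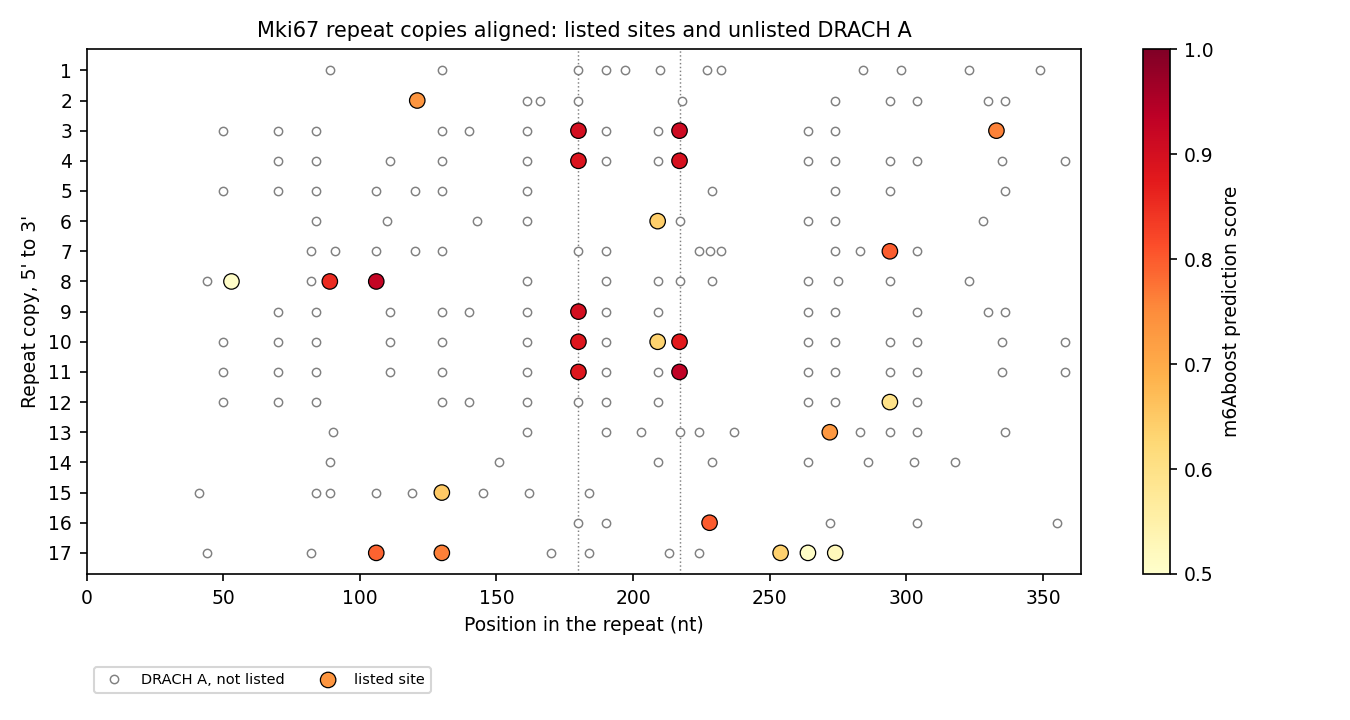
DRACH A of the 17 Mki67 repeat copies (y axis, copy number from 5′ to 3′) by position in the aligned repeat (x axis, nt). Open circles are DRACH A that are not listed, filled circles are sites coloured by prediction score, and dotted lines mark nt 180 and nt 217, where 5 and 4 copies have a site, each with a score of 0.876 or more.

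The other recurring positions were listed in 2 copies each and had lower scores in most of them. At nt 209, only 8 nt before nt 217, TGACT was listed in copies 6 and 10 with scores of 0.643 and 0.634, and in copies 3, 4 and 11 the same TGACT was not listed. AGACT at nt 294 was listed in copies 7 and 12, with 0.797 and 0.597, of 6 copies with it. GGACA at nt 130 was listed in copies 15 and 17, with 0.651 and 0.762, of 5 copies with it. At nt 106 the sites were GAACT in copy 8, with 0.925, and TAACT in copy 17, with 0.792. A motif shared by several copies was thus listed in all of them at nt 217 alone among these 6 positions.

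Reads of near-identical copies can be hard to place, and the authors kept only uniquely mapped reads. Within the Mki67 transcript, 1543 of 10042 stretches of 20 nt, 1154 of 10032 of 30 nt, 594 of 10012 of 50 nt and 201 of 9987 of 75 nt occurred more than once, and the longest repeated stretch had 109 nt. Counted from the base after the site, where a cDNA of miCLIP2 starts, 16 to 45 nt were needed for a sequence found once in the transcript at the 9 sites of nt 180 and nt 217. At the other 29 sites this was 8 to 24 nt, where 8 nt was the shortest length tried. The unlisted A of copy 12 needed 28 nt, as many as the listed site at nt 180 of copy 3. The unlisted TGACT at nt 209 of copies 3, 4 and 11 needed 31, 53 and 53 nt, and the listed ones of copies 6 and 10 needed 8 and 24 nt. Among the 177 unlisted DRACH A in copies, the lowest needed 8 nt, the median 10 nt and the highest 95 nt. The 26 listed ones had a median of 9 nt and needed at most 45 nt. Every DRACH A in copies that needed more than 45 nt was thus unlisted. The part of read placement in which copies were listed was not tested, and the rest of the genome was not searched.

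Set beside other genes, Mki67 was number 5 of 5172 by the number of its sites. The 4 above it were Gm20388 with 68, Ahnak with 67, Plec with 66 and Rnf213 with 43. Gm20388 spans other genes, and 0 of its sites lay in it alone, so that Mki67 was number 4 when only sites within 1 gene were counted. Per kb of spliced transcript, with 3.78 sites, it was number 78 of the 380 genes with 10 or more sites. The gene thus stood higher by number of sites than by density.

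The same comparison was made over the longest stretch of CDS in 1 exon, which for Mki67 is exon 12. Among 768 genes with such a stretch of 1000 nt or more, Mki67 was number 176 with 4.24 sites per kb, beside a median of 2.20, and the listed share of DRACH A over all these stretches was 10.4%, beside 11.2% in exon 12. Ahnak, a giant scaffold protein under the plasma membrane, had 65 sites in 16623 nt, or 3.91 per kb, with 16.5% (13.1 to 20.6%) of DRACH A listed. Plec, the cytoskeletal linker plectin, had 49 sites in 6213 nt, or 7.89 per kb, and 34.4% (26.7 to 43.0%) listed. Rnf213, a large ubiquitin ligase, had 24 in 3603 nt, or 6.66 per kb, and 29.7% (20.5 to 40.9%) listed. Spen, a transcriptional repressor, had 21 in 8020 nt, or 2.62 per kb, and 11.2% (7.35 to 16.6%) listed. The interval of Mki67 lay below those of Plec and Rnf213 and overlapped those of Ahnak and Spen.

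Among genes whose longest coding stretch was closest in length to exon 12, the range was wide. Plec, given above, belongs to these and had the highest share. Srrm2, a splicing cofactor, had 16 sites in 6569 nt with 11.0% (6.86 to 17.1%) of DRACH A listed, and Ankrd11, a chromatin regulator, 16 in 6518 nt with 9.38% (5.76 to 14.9%). Apc, a regulator of Wnt signalling, had 0 of 162 DRACH A listed in 6574 nt, which allows a share of up to 2.32%, and Crybg3 had 0 of 146 in 6136 nt, which allows up to 2.56%. Expression of these genes is not in the list, so fewer reads and less methylation cannot be told apart. No test was run between the genes, which were selected on their sites or on their length.

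**Figure D4:**
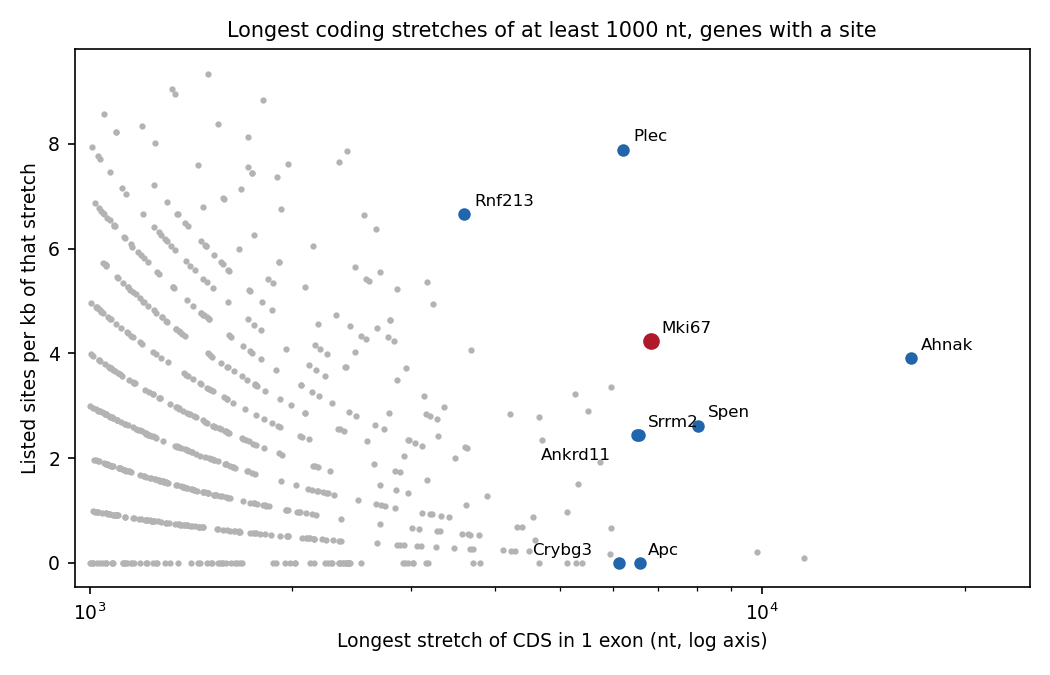
Listed sites per kb (y axis) against the length of the longest stretch of CDS in 1 exon (x axis, nt, log axis) for the 768 genes with a site and a stretch of 1000 nt or more, 1 point per gene. Mki67 (red) stands at 4.24 sites per kb, below Plec at 7.89 and Rnf213 at 6.66 and above Spen at 2.62, and Apc and Crybg3 are at 0.

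Of a list of 45 other genes known for their role in proliferation, 26 carried a site, 94 sites in all, with a median of 2 sites in the genes that had any. This stands beside the 23.1% of all annotated protein-coding genes, which includes genes that are not expressed. The most were found in Cenpf, a kinetochore protein, with 13, in Incenp, the scaffold of the chromosomal passenger complex, with 11, and in Foxm1, a transcription factor of the G2 and M phases, with 9. Counting only sites in exons of the chosen transcript, 10 of the 11 in Incenp, there were 3.78 sites per kb in Incenp, the same as in Mki67. Cenpf had 1.17 and Foxm1 1.93 per kb. The transcript chosen for Incenp is almost all CDS (2640 of 2643 nt), whereas CDS makes up 8991 of 11130 nt in Cenpf and 2271 of 4652 nt in Foxm1. These densities thus rest on unlike transcript models. Birc5, the passenger complex member survivin, had 4.22 per kb with 4 sites and was named after its values were seen. Of 14 genes for proteins that bind or regulate Ki-67 or act beside it, 6 carried a site, 18 in all. Cdca2, whose product Repo-Man directs protein phosphatase 1 to chromatin, had 8 of these, and Cbx1, Fzr1, Ncl, Nifk and Ppp1cc shared the rest. The 3 sites of Cbx1 and the 1 of Ppp1cc lay inside the gene but in no exon of the chosen transcript.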

How the data were processed

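The authors mapped miCLIP2 reads of 3 untreated RAW264.7 replicates to GRCm38 with STAR 2.7.3a, keeping uniquely mapped reads, and used UMI-tools 1.0.0, SAMtools 1.9 and bedtools 2.27.1, per the submitters' processing notes and the study's methods. Peaks were called with PureCLIP in each replicate and kept when present in at least 2, and m6Aboost scored those at A. The authors deposited 1 pooled list of sites with a prediction score above 0.5, and that score is the unit used here. No depth per sample or per site is in the list, and precision is given only as 95% Wilson intervals.

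Starts were read as 0-based, which puts all 38 Mki67 sites at an A (0 of 38 when read as 1-based). Positions are 1-based. Genes came from GENCODE M21 (the authors used M23), and each gene was represented by the transcript with the longest CDS. DRACH A and distances were counted on spliced transcripts, with sites matched by position. Repeat copies were found with pyhmmer 0.12.3 on the translated CDS at an E-value of at most 1e-5. Scripts ran in Python 3.11.15 with NumPy 2.4.6, SciPy 1.17.1, Biopython 1.88 and matplotlib 3.10.9, and the counting steps were tested on simulated data with known answers.

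Mki67 and the gene lists were chosen with earlier results of these data known. The sites printed with sequence were the 3 highest and 3 lowest scores and those at equal positions of different repeat copies, of which the 2 positions listed in most copies are shown. Copies 12, 7 and 6, the uniqueness of sequence and the comparison of the 21 nt were added after the values were seen. Genes set beside Mki67 were the others with most sites, Gm20388 aside, and those nearest in the length of the longest coding stretch. Alternatives varied the score threshold, the transcript, the motif, the windows and the repeat search. Other profiles of the study were not analysed here.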

Additional observations from a re-analysis of the deposited data

How the results depend on the processing

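Of 46 alternative values computed, 25 stayed within the interval of the main value or within 1.5 times a main count. With a minimum score of 0.7, 20 Mki67 sites were left, 18 of them in exon 12 (2.63 per kb), 5.80% of the DRACH A were listed, and the shares by junction were 0% within 100 nt and 6.97% farther away. With 0.9, 5 sites were left, 5 in exon 12 (0.731 per kb), 100% in the CDS, and 1.45% of DRACH A were listed. On Mki67-202, the only transcript passing the support filter in M21, 0 sites lay in its longest coding exon and 5.26% in its CDS, because that model lacks exon 12, with 29 sites, and 834 nt of exon 6, with 5. Reading the motif as RRACH left 81.6% of sites at it. Other windows gave 44.7% (50 nt) and 78.9% (200 nt) of sites with a neighbour, 1 site within 100 nt of the stop codon (2 within 200 nt), and 0% of DRACH A listed within 50 nt of a junction. The rank per kb was 158 of 1548 genes with 5 or more sites, and that of the longest coding stretch was 493 of 1740 (500 nt or more) and 25 of 215 (2000 nt or more). Alternatives on the junction shares (distance and minimum score), the repeat ends and the stretch length were chosen after seeing the data. No paired analysis was possible because only a pooled list of 1 condition was analysed here, which also left no way to drop a replicate. Depth limits every site by an unknown amount, since no counts are listed.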
